A study of Mus musculus with 4 samples.

Results

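The 38 genes described here encode proteins of the synaptic vesicle membrane and proteins that cluster, tether, fuse and retrieve the vesicles. They are listed by name, with earlier results of these data known, and make up 38 of 21887 protein-coding genes in the RefSeq gene table. Open chromatin was profiled with ATAC-seq. A transposase cuts accessible DNA in nuclei, and sites with an excess of cuts are called as peaks. Peaks of 4 libraries that overlapped by at least 1 bp were merged into regions, and every region in the body of a listed gene or within 10 kb of it was taken. This gave 324 of 67299 merged regions, each gene holding between 2 and 27.

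The tissue was the paraventricular hypothalamic nucleus (PVH). Mice were 12 weeks of age, and the PVH was taken 4 weeks after virus injection. Of the libraries, 2 came from mice given AAV-Cre, an adeno-associated virus that carries Cre recombinase, and 2 from mice given AAV-GFP, which carries a fluorescent protein in its place. Mice of both groups had the genotype Otp fl/fl; Ai14. Cre therefore deletes Otp, which encodes a homeodomain protein that specifies hypothalamic neurons, and switches on the Ai14 red reporter, only in cells that the virus reached, and no sorting of those cells is named. The question put was whether chromatin near targets of Otp is less open once Otp is deleted in the adult. The labels give no sex, no number of animals in a library and no promoter for Cre, and nothing states that different animals gave the libraries of a group, so differences between replicates may be technical. With 4 libraries there are 3 ways to split them into pairs, so the smallest exact permutation p is 0.333, an exact test between the groups could not reach 0.05, and no p is given for any comparison between them.

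Fusion of a synaptic vesicle is driven by SNARE proteins, Vamp on the vesicle and syntaxin and Snap25 on the plasma membrane, which zip into a common bundle. Synaptotagmins such as Syt1, on the vesicle, sense the calcium that enters with an action potential and trigger fusion. Complexins, Munc13 and Rim proteins hold vesicles ready at the active zone. In the PVH the same proteins serve transmitter release from terminals, and neuroendocrine cells there also release peptides from dense-core granules with related machinery.

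The lists held 23384 and 26612 peaks in AAV-Cre libraries 1 and 2, against 57682 and 34100 in AAV-GFP libraries 1 and 2. The read depth behind them is unknown. Of the 324 regions near the 38 genes, 103 and 122 held a peak in the AAV-Cre libraries, against 265 and 172 in the AAV-GFP libraries, so AAV-GFP library 1 stood apart from the other libraries in the number of its peaks. As many as 160 of these regions had a peak in only 1 library, and 109 of those were in AAV-GFP library 1 alone. Regions of AAV-GFP library 1 alone made up 33.6% here, against 31.3% of regions near other coding genes. For AAV-Cre library 1, AAV-Cre library 2 and AAV-GFP library 2 alone the shares were 3.09%, 4.94% and 7.72%, against 3.42%, 4.43% and 6.28%. At the targeted gene Otp, 2 regions overlapped the gene body, of which one had a peak in AAV-Cre library 1 alone and the other in both AAV-GFP libraries alone. The labels do not give the positions of the loxP sites, so this checks no deletion. Gene ends held a peak in every library for 5 of 8 neuronal, 1 of 7 PVH, 1 of 6 astrocyte and 0 of 8 oligodendrocyte marker genes, against 41.3% of other coding genes. No library had a gene-end peak for 1 of the neuronal, 1 of the PVH, 2 of the astrocyte and 3 of the oligodendrocyte markers, nor for any of 6 microglial and 5 endothelial markers, against 41.9% of other coding genes. In bulk tissue, fewer cells of a type and less open chromatin in each cell cannot be told apart.

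A region is called control-only where both AAV-GFP lists and neither AAV-Cre list held a peak, Cre-only in the converse case, and shared where all 4 lists held one. Strength is given as the authors' fold enrichment at the peak summit, and as a percentile of the peak within its own library's list by −log10 p, where 100 is the strongest. Folds are the authors' own values, set peak by peak within each list, and the lists differ in length. Folds and percentiles of the libraries are therefore set side by side as a description, and no direction between the groups is read from them. A gene end means the 1 kb before and after either boundary of the gene, because the gene table gives no strand.

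For 29 of the 38 genes RefSeq gives a promoter sequence on build GRCm38.p6, from 250 bases before to 50 bases after the annotated start. The promoters of Syp and Sv2c are printed because only the AAV-GFP libraries had a peak over them. Those of Rab3a and Syt1 carried some of the strongest gene-end peaks in all 4 libraries. Unc13b is shown because its promoter region was shared but ranked lower in both AAV-Cre libraries. That promoter lies inside the annotated gene and not at its gene end. Syn1 is shown as the promoter that holds both a CRE and an NRF1 core. Each runs 5′ to 3′ on the strand of its gene, and capitals mark matches, on either strand, to the GC box GGGCGG, the CCAAT box CCAAT, the E-box CACGTG, the CRE TGACGTCA or the NRF1 core GCGCATGC.
Syp: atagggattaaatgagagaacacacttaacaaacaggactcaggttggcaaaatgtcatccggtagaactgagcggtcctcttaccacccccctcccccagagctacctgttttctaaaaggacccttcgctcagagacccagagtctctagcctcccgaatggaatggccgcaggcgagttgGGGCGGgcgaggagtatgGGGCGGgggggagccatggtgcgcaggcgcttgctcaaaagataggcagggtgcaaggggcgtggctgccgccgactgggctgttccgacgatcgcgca
Sv2c: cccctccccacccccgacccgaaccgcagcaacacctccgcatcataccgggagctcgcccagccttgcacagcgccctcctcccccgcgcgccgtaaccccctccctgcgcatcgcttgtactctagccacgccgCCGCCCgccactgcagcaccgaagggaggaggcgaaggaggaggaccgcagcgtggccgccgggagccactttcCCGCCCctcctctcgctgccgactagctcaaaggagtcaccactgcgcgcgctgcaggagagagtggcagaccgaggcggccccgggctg
Rab3a: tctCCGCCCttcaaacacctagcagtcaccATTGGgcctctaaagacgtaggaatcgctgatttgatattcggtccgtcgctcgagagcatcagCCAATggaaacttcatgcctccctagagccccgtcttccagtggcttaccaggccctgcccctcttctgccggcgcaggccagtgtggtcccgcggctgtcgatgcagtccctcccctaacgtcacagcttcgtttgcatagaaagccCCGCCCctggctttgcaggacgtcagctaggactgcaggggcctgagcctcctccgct
Syt1: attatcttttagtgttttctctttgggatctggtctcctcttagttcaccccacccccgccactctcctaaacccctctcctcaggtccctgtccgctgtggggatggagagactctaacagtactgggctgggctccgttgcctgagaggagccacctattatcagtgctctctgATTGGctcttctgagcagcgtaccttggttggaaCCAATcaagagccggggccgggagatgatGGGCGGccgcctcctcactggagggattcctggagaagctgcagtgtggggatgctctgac
Unc13b: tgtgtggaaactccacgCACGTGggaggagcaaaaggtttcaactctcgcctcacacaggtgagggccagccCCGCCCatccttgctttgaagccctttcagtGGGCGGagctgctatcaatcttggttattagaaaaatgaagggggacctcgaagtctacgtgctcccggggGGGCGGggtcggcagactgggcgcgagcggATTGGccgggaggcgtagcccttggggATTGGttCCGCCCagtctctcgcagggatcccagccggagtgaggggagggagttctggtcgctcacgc
Syn1: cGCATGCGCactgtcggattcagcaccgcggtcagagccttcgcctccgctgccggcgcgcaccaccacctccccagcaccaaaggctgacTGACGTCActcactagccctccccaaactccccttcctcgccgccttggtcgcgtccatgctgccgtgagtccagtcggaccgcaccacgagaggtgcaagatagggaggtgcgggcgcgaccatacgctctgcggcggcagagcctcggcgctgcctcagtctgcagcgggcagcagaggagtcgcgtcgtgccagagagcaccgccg
The promoters lie at chrX:7638330-7638629 (plus strand) for Syp, chr13:96132528-96132827 (minus) for Sv2c, chr8:70754453-70754752 (plus) for Rab3a, chr10:109010926-109011225 (minus) for Syt1, chr4:43058703-43059002 (plus) for Unc13b and chrX:20920869-20921168 (minus) for Syn1.

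A peak lay over the promoter window in all 4 libraries for 16 of the 29 genes (55.2%), against 36.6% of 17463 other coding genes with a promoter entry. By library, 16 and 21 of the 29 promoters held a peak after AAV-Cre, against 24 and 22 after AAV-GFP. Among the 17463 others the counts were 7136 and 7350 after AAV-Cre, against 9012 and 8301 after AAV-GFP. In 2 genes, Syp and Sv2c, the promoter peak was control-only, and the same state held for 2.98% of the other promoters. Another 4 genes, Dnm1, Erc2, Rab3b and Sh3gl2, lacked a peak only in AAV-Cre library 1. The Bsn promoter was open in AAV-Cre library 2 and AAV-GFP library 1, and that of Nsf in AAV-GFP library 1 alone. Shares of these mixed states among the other promoters are not given. For Sv2a, Sv2b, Syngr1, Syt2 and Cplx2 no library had a peak over the promoter window, which was so for 17.2% of the 29 genes and 46.6% of the others.

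The promoters were rich in G and C, with a median GC content of 62.3% against 56.3% in the other coding genes. A GC box stood in 22 of the 29 (75.9%), against 46.3% of all other promoters and 71.9% of the 6384 others that held a peak in all 4 libraries. Unc13b, Syt2, Pclo and Rab3b each had 4 matches, those of Rab3b partly overlapping one another. The CCAAT box was found in 6 promoters, those of Erc2, Rab3a, Rab3c, Syt1, Unc13b and Vamp1, a share of 20.7% beside 39.2% of all others and 44.8% of the others open in all 4 libraries. For the motifs that follow, the share of all others comes first and that of the open others after it. A CRE occurred in Syn1 and Sh3gl2 (6.90%, against 2.32% and 4.17%), an NRF1 core in Syn1 and Bsn (6.90%, against 3.60% and 6.91%), an E-box in Nsf and Unc13b (6.90%, against 7.91% and 10.3%) and the TATA box TATAAA in Rab3b and Sv2b (6.90%, against 13.4% and 5.26%). The homeodomain core TAATTA was in none of the 29, against 4.70% and 1.66%. The RE1 element, searched as CAGCACC and GGACAG with 2 bases between them, was also in none, against 0.0401% and 0.0313%. For the NRF1 core and the TATA box the 29 promoters thus stand otherwise beside the open promoters than beside all others. Both strands were searched throughout. The NRF1 core reads nearly the same on both strands, so 1 site can give a pair of overlapping matches, as in Bsn. These are matches of letters and not measured binding.

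Gene ends held peaks in a larger share of the 38 than of other coding genes. All 4 libraries had a peak at an end of 24 of the 38 genes (63.2%), against 41.3% of 21849 other coding genes, and no library had one for 3 genes (7.89%), Syngr1, Syt2 and Doc2a, against 41.9%. In single libraries 27 and 28 gene ends held a peak after AAV-Cre, against 34 and 33 after AAV-GFP. Among the 21849 other coding genes the counts were 9936 and 10286 after AAV-Cre, against 12267 and 11394 after AAV-GFP. A control-only gene end was found in 3 genes (Syp, Sv2c and Syngr3), beside 3.08% of the other coding genes. A Cre-only gene end was found in 0 of the 38, beside 0.087% of the others. The remaining 8 genes (Sv2a, Sv2b, Syt7, Vamp2, Cplx2, Rims2, Bsn and Erc2) had mixed states, beside 2965 of the 21849 other coding genes. No p is given for these counts.

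**Figure D1:**
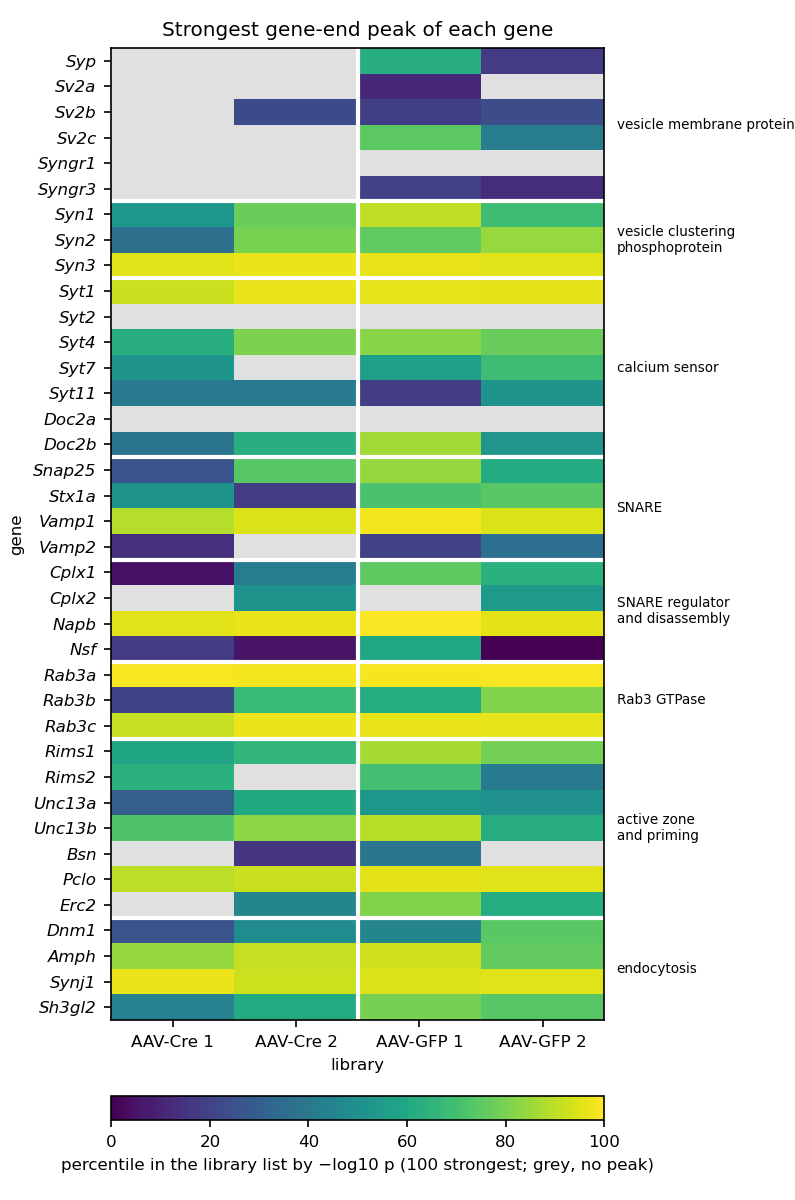
Strongest gene-end peak of each of the 38 genes, as its percentile in its own library's list by −log10 p (colour, 100 strongest, grey where no peak was called), in AAV-Cre libraries 1 and 2 and AAV-GFP libraries 1 and 2, with genes grouped by role. Rab3a lay between percentiles 98.2 and 99.2 in every library, while the vesicle membrane proteins in the top rows were grey in both AAV-Cre libraries, save a peak of Sv2b in AAV-Cre library 2.

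The vesicle membrane proteins had the least open gene ends of the 8 roles, with 0 of 6 open in all 4 libraries and 3 of 6 control-only. Syp encodes synaptophysin, a major membrane protein of the vesicle. Its start, on chromosome X at 7638390 to 7638744, was without a peak after AAV-Cre in both libraries, against folds of 5.85 and 4.45 in the AAV-GFP libraries, at percentiles of 62.3 and 17.2. Its summits lay at a median of −32 bp from the annotated start, within the sequence printed above. The other Syp region, inside the gene at 7648682 to 7649234, was shared, with folds of 4.74 and 6.37 after AAV-Cre against 10.7 and 10.04 after AAV-GFP.

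Sv2c, which like Sv2a and Sv2b encodes a large glycoprotein of the vesicle, had a control-only promoter region at chromosome 13, 96132540 to 96132782, with AAV-GFP folds of 7.01 and 5.22. A neighbouring region 1380.5 bp downstream of the start by its median summit was shared, with folds of 4.09 and 6.28 after AAV-Cre against 9.04 and 7.08 after AAV-GFP. Within the gene, 96023750 to 96024342 was shared at folds of 9.36 and 10.2 after AAV-Cre against 11.02 and 9.07 after AAV-GFP. A further 2 regions of Sv2c were control-only, one inside the gene (AAV-GFP folds of 8.49 and 6.70) and one 5508 bp beyond it (AAV-GFP folds of 5.46 and 4.60). Sv2b had 16 regions in a body of 194 kb, and none was shared. Its gene-end region at chromosome 7, 75308715 to 75309128, had no peak in AAV-Cre library 1 and a fold of 4.43 in AAV-Cre library 2, against 4.15 and 4.76 in the AAV-GFP libraries. The stronger gene-end peak of AAV-Cre library 2, at a fold of 4.83, stood alone in a second region from 75308123 to 75308360. Sv2a, the binding site of the antiepileptic drug levetiracetam, had its gene end open in AAV-GFP library 1 alone, at a fold of 3.33. Its 2 shared regions lay 8482 and 1704 bp outside the gene, at ends of Sf3b4 and Mtmr11 and of Bola1.

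The synaptogyrins, vesicle proteins related to synaptophysin, were no more open. Syngr3 counts as control-only at its gene end, but its AAV-GFP peaks, with folds of 3.45 and 3.56, lay in separate places that did not overlap, so neither region was shared by the AAV-GFP libraries. The ends of Syngr1 were free of peaks throughout. The shared regions near these 2 genes lay outside them, at an end of Rpl3 for Syngr1 and at ends of Gfer and Noxo1 for Syngr3.

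The synapsins, phosphoproteins that hold vesicles in clusters, had open gene ends in all 4 libraries for 3 of 3 genes. The end of Syn3 was among the strongest of the whole set, with folds of 11.6 and 11.3 after AAV-Cre against 12.9 and 12.0 after AAV-GFP, and percentiles of 95.1 and 96.9 after AAV-Cre against 96.7 and 95.1 after AAV-GFP. By percentile the groups overlapped there. Syn1 had folds of 6.03 and 8.11 after AAV-Cre against 10.9 and 7.40 after AAV-GFP, and Syn2 had 5.08 and 8.02 after AAV-Cre against 7.21 and 9.56 after AAV-GFP.

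Along Syn3, a gene of 450 kb with 26 regions, 4 were control-only and 1 was Cre-only. The Cre-only region, on chromosome 10 at 86253143 to 86253691, had AAV-Cre folds of 4.54 and 4.36, at percentiles of 21.4 and 17.6. The control-only regions had AAV-GFP folds between 3.53 and 7.96, and at 86463928 to 86464130 the libraries stood far apart, at percentiles of 74.2 and 4.19. Syn2 had 1 control-only region, at chromosome 6, 115267850 to 115268261, with AAV-GFP folds of 8.59 and 7.69.

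The role named calcium sensor groups the listed synaptotagmin and Doc2 genes, and the name does not mean that each of them binds calcium. Syt1, the sensor of fast synchronous release, had a gene end that was strong in every library. Its folds there were 10.4 and 11.8 after AAV-Cre against 13.7 and 13.6 after AAV-GFP. Its body held many regions. Of 26 regions in 513 kb, 8 were control-only, the most of any of the 38 genes, and 3 were shared. The strongest control-only one by its weaker AAV-GFP percentile lay at chromosome 10, 108872426 to 108872676, with AAV-GFP folds of 6.40 and 8.37, and the weakest at 108619923 to 108620218, with AAV-GFP folds of 5.77 and 3.15. The 8 weaker percentiles ran from 0.113 to 64.0, so several were near the bottom of an AAV-GFP list.

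Syt2, a fast sensor best known from hindbrain and motor synapses, was without a gene-end peak throughout and held a control-only region with AAV-GFP folds of 5.50 and 4.32. Syt7, a slower sensor of asynchronous release, had gene-end folds of 5.34 in AAV-Cre library 1, with no peak in AAV-Cre library 2, against 5.10 and 7.14 in the AAV-GFP libraries. Its control-only region lay 4355 bp outside the gene at an end of Lrrc10b (AAV-GFP folds of 6.86 and 4.49), and no region of Syt7 was shared. Syt4 was open at its end in all 4 libraries, with folds of 6.52 and 8.13 after AAV-Cre against 8.83 and 8.53 after AAV-GFP. Syt11 had a weak gene end, with folds of 4.50 and 4.40 after AAV-Cre against 2.99 and 4.53 after AAV-GFP. Its own promoter peak lay inside the gene, at 88772331 to 88772740 on chromosome 3, with folds of 3.99 and 4.05 after AAV-Cre against 5.05 and 4.40 after AAV-GFP. Doc2b, a high-affinity calcium sensor, was open in all 4 libraries (5.20 and 6.22 after AAV-Cre against 8.62 and 5.79 after AAV-GFP), whereas its relative Doc2a was without a gene-end peak throughout.

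The SNARE genes held no control-only region, with 0 of 9 regions that both AAV-GFP libraries had. Vamp1, a vesicle SNARE, had gene-end folds of 9.08 and 10.7 after AAV-Cre against 15.5 and 11.5 after AAV-GFP. Its relative Vamp2 was weak, with a fold of 4.06 in AAV-Cre library 1 and no gene-end peak in AAV-Cre library 2, against 3.31 and 4.39 in the AAV-GFP libraries. The strong region near Vamp2, at chromosome 11, 69094683 to 69095383, lay 2302 bp outside it at an end of the clock gene Per1. Stx1a (5.88 and 4.40 after AAV-Cre against 6.77 and 7.69 after AAV-GFP) and Snap25, the plasma membrane SNAREs, were open in all 4 libraries. The gene-end region that all libraries shared at Snap25 had folds of 4.48 and 4.47 after AAV-Cre against 5.78 and 4.93 after AAV-GFP. The strongest gene-end peak of Snap25 in each library had folds of 4.48 and 6.65 after AAV-Cre against 7.39 and 5.93 after AAV-GFP.

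Of the genes that regulate or take apart SNARE bundles, Napb, which encodes the beta-SNAP adaptor of the disassembly ATPase, had the second strongest gene end, with folds of 11.6 and 12.8 after AAV-Cre against 22.7 and 14.8 after AAV-GFP. Nsf, the ATPase itself, had the weakest gene-end region among those shared, at chromosome 11, 103953416 to 103953956, with folds of 4.30 and 3.91 after AAV-Cre against 2.93 and 3.02 after AAV-GFP and a mean percentile of 6.19. A stronger gene-end peak of Nsf in AAV-GFP library 1 lay in another region, at a fold of 5.39 and a percentile of 59.5. Inside Nsf, 2 control-only regions had AAV-GFP folds of 3.58 and 5.26, and of 3.83 and 5.40. Cplx1, a complexin that clamps and assists fusion, had gene-end folds of 3.73 and 4.96 after AAV-Cre against 6.46 and 6.07 after AAV-GFP, and a control-only region 4390 bp outside it (AAV-GFP folds of 6.88 and 3.99). Cplx2 had a gene-end peak in AAV-Cre library 2 and AAV-GFP library 2 only within the window, although the region that reaches the window, at chromosome 13, 54302742 to 54304046, held a peak of all 4 libraries. Its control-only region inside the gene had AAV-GFP folds of 12.3 and 6.12.

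The Rab3 GTPases, which mark vesicles for docking, were open at their ends in all 4 libraries for 3 of 3 genes. Rab3a had the strongest gene end of the 38, with folds of 12.7 and 11.04 after AAV-Cre against 12.1 and 14.2 after AAV-GFP and percentiles of 99.2 and 98.2 after AAV-Cre against 98.8 and 99.1 after AAV-GFP. The groups overlapped. Rab3c followed at folds of 9.69 and 13.1 after AAV-Cre against 13.9 and 14.3 after AAV-GFP. Rab3b was weaker, at 4.80 and 7.17 after AAV-Cre against 6.23 and 9.73 after AAV-GFP, and 4 of its 9 regions were control-only. One of them, 8793 bp outside the gene at chromosome 4, 108870067 to 108870277, was the strongest control-only region near any of the 38 genes, with AAV-GFP folds of 11.7 and 10.1 and a weaker percentile of 78.1. The other 3 had AAV-GFP folds between 4.71 and 7.43. Rab3c had 19 regions in 227 kb, of which 1 was control-only (AAV-GFP folds of 7.28 and 4.66).

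At the active zone, Pclo, a giant scaffold protein, had strong gene ends (9.64 and 9.98 after AAV-Cre against 13.5 and 14.2 after AAV-GFP). The other scaffold of that pair, Bsn, had gene-end peaks in AAV-Cre library 2 (4.34) and AAV-GFP library 1 (4.31) alone. Bsn held 2 of the 3 Cre-only regions. They lay on chromosome 9 at 108129729 to 108130104, with AAV-Cre folds of 6.99 and 5.15, and at 108180297 to 108180604, with 4.50 and 4.99. It also held a strong control-only region, at 108120161 to 108120507, with AAV-GFP folds of 6.76 and 8.49. Regions of both kinds thus stood within the same gene.

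Erc2, a scaffold of the ELKS family, is the longest of the 38 genes at 856 kb and had the most regions, 27. AAV-GFP library 1 had a peak in 26 of them and AAV-GFP library 2 in 9, against 1 in AAV-Cre library 1 and 7 in AAV-Cre library 2. Its gene end had folds of 5.62 in AAV-Cre library 2, with no peak in AAV-Cre library 1, against 7.97 and 6.43 in the AAV-GFP libraries. Its 4 control-only regions had AAV-GFP folds between 3.73 and 7.85, the strongest 1160.5 bp downstream of the start by its median summit.

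Rims1 and Rims2 link Rab3 to calcium channels. Rims1 had gene-end folds of 6.12 and 6.23 after AAV-Cre against 8.93 and 8.27 after AAV-GFP. Rims2 had a gene-end peak in AAV-Cre library 1 (fold 6.12) but not in AAV-Cre library 2, against folds of 6.31 and 4.99 in the AAV-GFP libraries. The AAV-Cre peak lay in a neighbouring region that also held a weaker peak of AAV-GFP library 2, so that the region at chromosome 15, 39197945 to 39198333, was control-only. A second control-only region inside Rims2 had AAV-GFP folds of 5.09 and 4.87, and none of its 10 regions was shared. Of the Munc13 genes, which prime vesicles, Unc13a had 3.87 and 4.56 after AAV-Cre against 3.71 and 4.18 after AAV-GFP. Unc13b had 5.72 and 6.96 after AAV-Cre against 7.20 and 5.01 after AAV-GFP, in a region that also lies at an end of Fam214b. Pclo had a further control-only region with AAV-GFP folds of 6.28 and 5.003.

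The endocytosis genes, which retrieve vesicle membrane after fusion, were open at their ends in all 4 libraries for 4 of 4. Amph, a membrane-bending protein, had folds of 8.50 and 10.03 after AAV-Cre against 11.9 and 7.68 after AAV-GFP. Sh3gl2, which encodes endophilin, had 5.27 and 5.79 after AAV-Cre against 8.20 and 8.03 after AAV-GFP. Dnm1, the GTPase that pinches vesicles off, had 4.01 and 4.94 after AAV-Cre against 3.78 and 6.23 after AAV-GFP. Synj1, a lipid phosphatase that helps to shed the clathrin coat, had its gene-end peak (12.2 and 9.42 after AAV-Cre against 11.4 and 13.0 after AAV-GFP) at an end of Cfap298. Its own promoter region, inside the annotated gene at chromosome 16, 91010711 to 91011749, had folds of 6.48 and 7.88 after AAV-Cre against 11.1 and 9.16 after AAV-GFP. Dnm1 had 2 control-only regions, with AAV-GFP folds of 4.15 and 4.66, and of 3.12 and 3.65. Amph and Sh3gl2 had 1 each, with AAV-GFP folds of 6.99 and 6.44 in Amph and of 3.49 and 4.65 in Sh3gl2.

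Control-only regions outnumbered Cre-only regions, as they did near other genes. Near the 38 genes the margin depended on the length of the lists, and the control-only share near other genes moved with that length too, as given below. In the full lists 40 regions were control-only and 3 Cre-only, while 66 were shared. Once all lists were shortened to equal length by keeping the 23384 strongest peaks, 15 were control-only and 9 Cre-only. Without single libraries the Cre-only regions numbered 4 to 19, the most without AAV-Cre library 1. Cre-only shares near other coding genes are not given under these settings. Of the 142 regions that both AAV-GFP libraries held, 40 were absent from both AAV-Cre lists, or 28.2% (95% Wilson interval 21.4 to 36.1). Near other coding genes the share was 22.9%, and 28.3% once the others were weighted to the same decile of AAV-GFP strength and to the same position, at a gene end or elsewhere. The share of the 38 genes minus that of the others at equal strength was −0.0874 percentage points. Of the 75 regions that both AAV-Cre libraries held, 3 were absent from both AAV-GFP lists, or 4% (1.37 to 11.1), against 3.69% near other coding genes and 4.96% at equal strength. The intervals cover counting error only, and regions of the same gene are not independent. Leaving out a library drops a condition for control-only and Cre-only regions, so both counts could hardly fall. Without AAV-GFP library 2, 154 regions counted as control-only (57.5%, against 57.05% at equal strength). The count of 40 also depended on list length, as given above. With lists of equal length the control-only share was 18.5%, against 13.1% at equal strength. Without AAV-GFP library 1, which stood apart, 66 were control-only, or 38.4% against 36.9% at equal strength.

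Absence followed the strength of the AAV-GFP peak. The weaker of the 2 AAV-GFP percentiles had a median of 26.1 in the 40 control-only regions and 72.7 in the 66 shared ones, against 26.9 and 76.4 near other genes. In the weakest decile 10 of 16 regions were control-only (62.5%, against 61.3% of the others), in the third strongest 1 of 14 (7.14%, against 2.18%), and in the top deciles above it 0 of 3 and 0 of 11. The 1 region of the third strongest decile was that of Rab3b described above. AAV-Cre library 1 lacked 65 of the 142 (45.8%, against 43.0% at equal strength) and AAV-Cre library 2 lacked 51 (35.9%, against 37.3%).

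**Figure D2:**
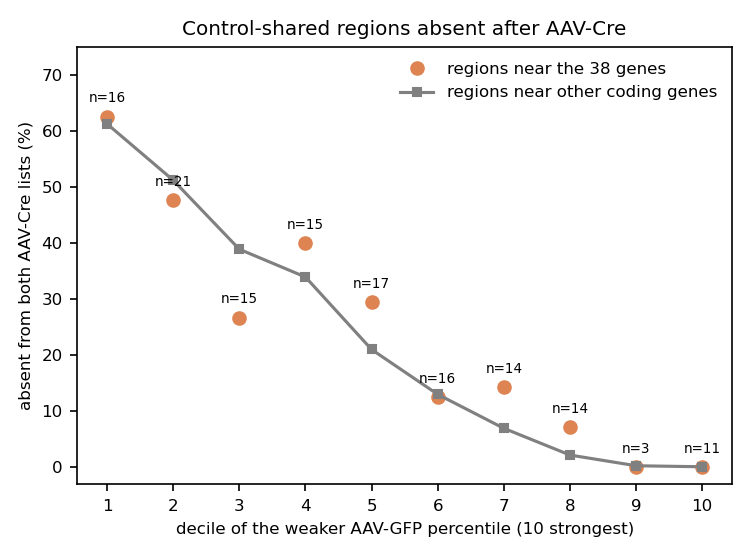
Share of regions held by both AAV-GFP libraries that were absent from both AAV-Cre lists, in percent, by decile of the weaker AAV-GFP percentile (10 strongest). Points are the regions near the 38 genes with their number above, and the line is the regions near other coding genes, from 61.3% in the weakest decile to 0.0907% in the strongest.

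The share also differed by position, near these genes and near others. At the end of any coding gene 6 of 49 regions held by both AAV-GFP libraries were control-only (12.2%, against 8.77% of the others), inside genes 31 of 84 (36.9%, against 35.9%) and outside them 3 of 9 (33.3%, against 34.4%). The 38 genes were long, with a median of 66.7 kb against 17.1 kb, and held a median of 6 regions against 2. Of their 324 regions, 72.8% lay inside genes, against 59.6% of the others. The 5 genes with most regions, Erc2, Syt1, Syn3, Rab3c and Sv2b, held 114 of them (35.2%) and 17 of the 40 control-only ones. Regions differed in width too, with a median of 598.5 bp in shared and 308 bp in control-only regions, against 649 and 298 bp near other genes. A region spans all the peaks merged into it, so shared regions tend to be wider by construction.

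**Figure D3:**
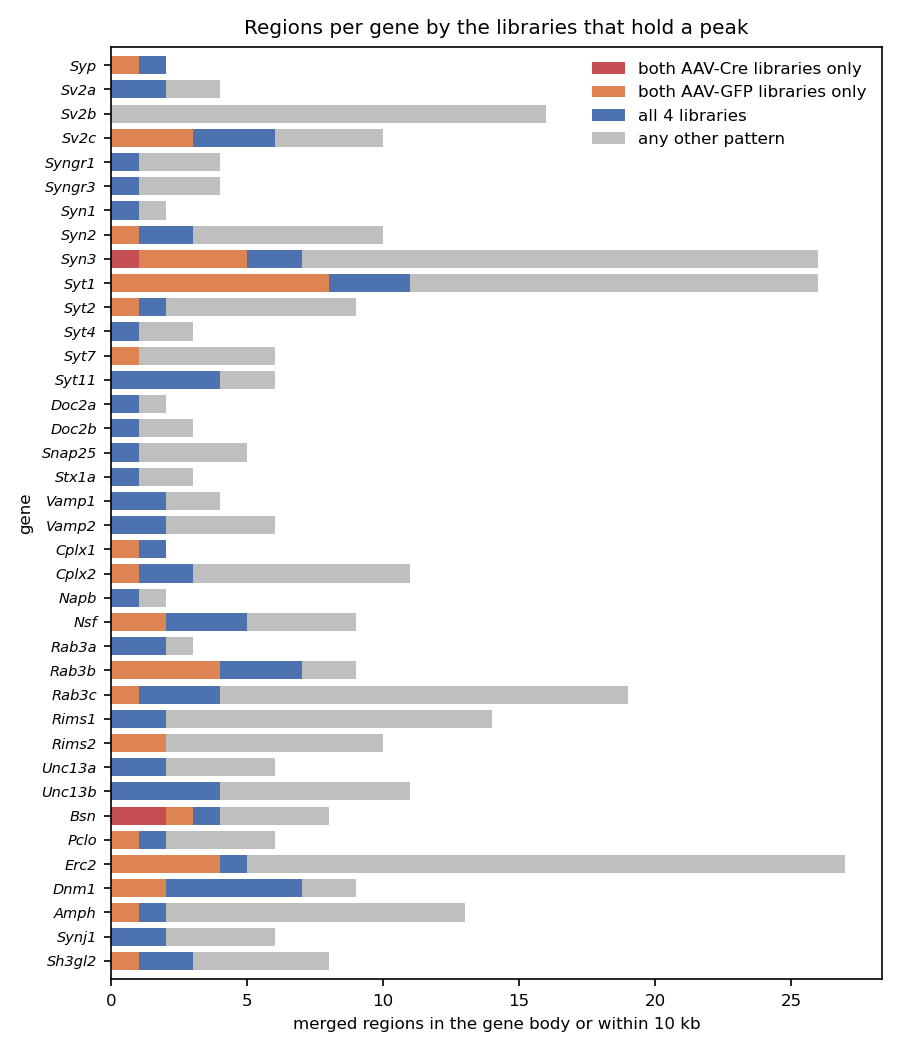
Number of merged regions in each gene body or within 10 kb of it, coloured by the libraries that held a peak (both AAV-Cre libraries only, both AAV-GFP libraries only, all 4, or any other pattern). Syt1 has the most control-only regions, 8, and the Cre-only regions are in Bsn (2) and Syn3 (1).

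By role, the control-only share of regions held by both AAV-GFP libraries was highest for calcium sensors, at 10 of 24 (41.7%, interval 24.5 to 61.2, against 29.9% at equal strength), and 8 of those 10 were in Syt1. It was 5 of 15 for Rab3 genes (33.3%, against 29.2%), 8 of 27 for active zone genes (29.6%, against 27.8%), 5 of 18 for synapsins (27.8%, against 35.5%) and 4 of 15 for SNARE regulators (26.7%, against 32.5%). Vesicle membrane proteins had 4 of 16 (25%, against 21.1%), endocytosis genes 4 of 18 (22.2%, against 26.4%) and SNARE genes 0 of 9 (interval 0 to 29.9, against 18.7%). For all 8 roles the share at equal strength fell inside the counting interval. In all, 19 genes held a control-only region, 35 held a shared region, and Sv2b, Syt7 and Rims2 held none that was shared. The matching counts for other coding genes are not given. By their medians the listed genes were longer and held more regions than other coding genes. These counts of genes are therefore not read as particular to the listed genes.

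**Figure D4:**
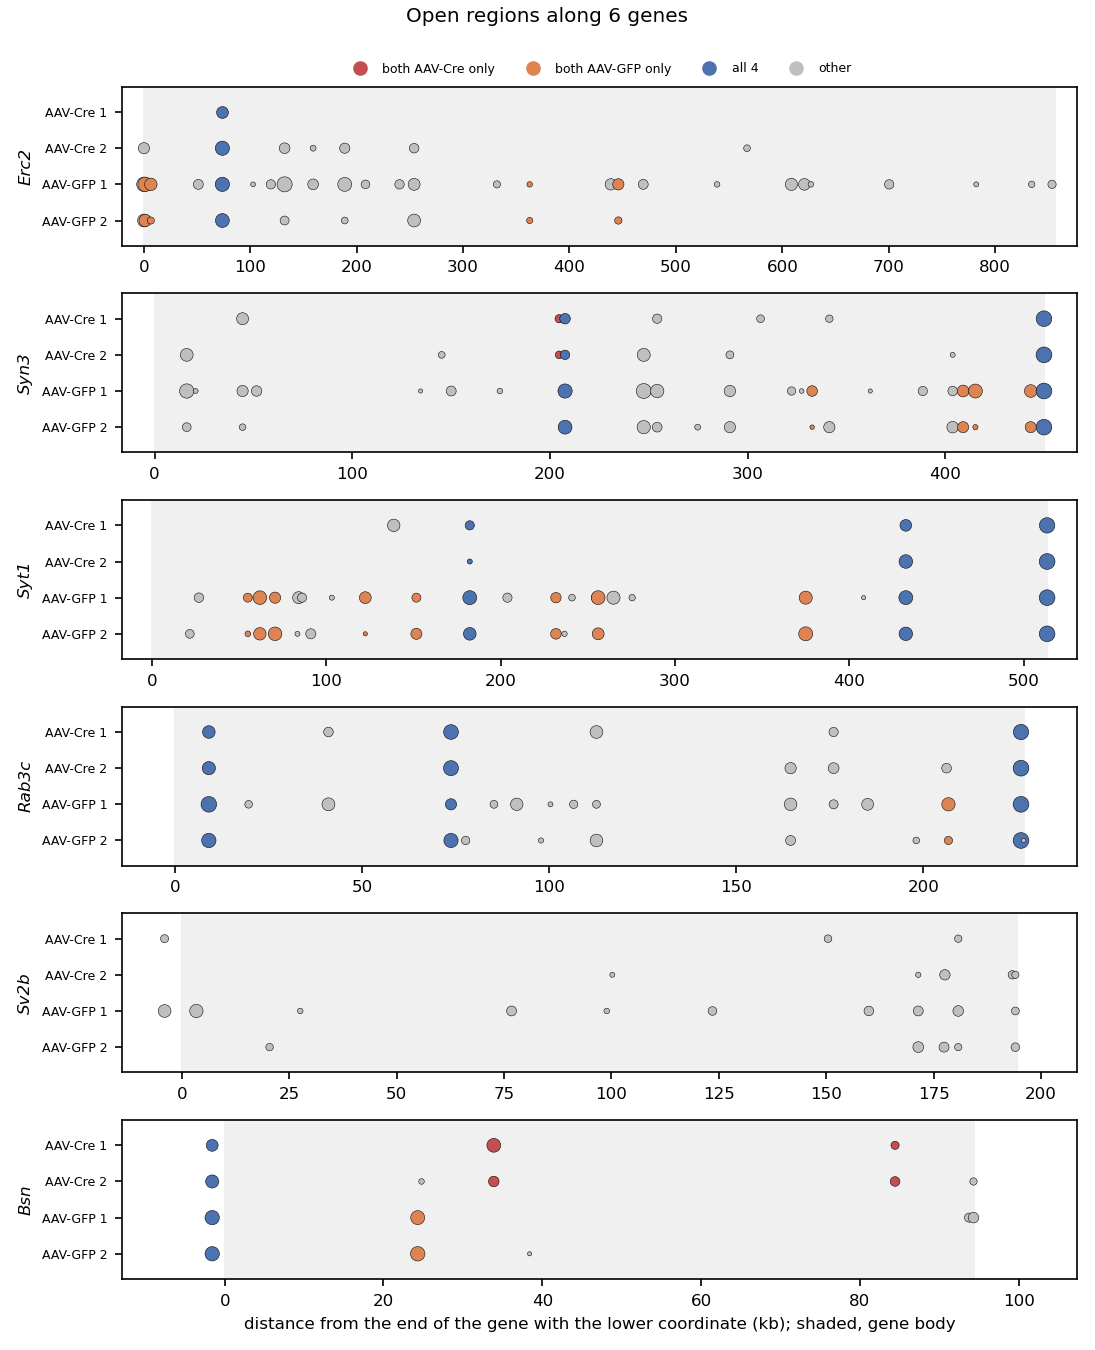
Regions along Erc2, Syn3, Syt1, Rab3c, Sv2b and Bsn, by distance in kb from the gene end with the lower coordinate (shaded, gene body), with 1 row for each library, AAV-Cre above AAV-GFP. Point size grows with the peak's percentile in its list, and colour gives the pattern over libraries. The shared regions at one end of Syt1, Syn3 and Rab3c recur in all 4 rows, the control-only regions of Syt1 spread through its body, and Sv2b has no region in every row.

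Regions shared by all 4 libraries can be compared by rank among themselves, since the same regions are ranked in each list. The 66 near the 38 genes had median percentiles, among all shared regions, of 32.2 and 49.0 in the AAV-Cre libraries against 44.0 and 46.4 in the AAV-GFP libraries. Near other coding genes the medians were 51.8 and 51.5 after AAV-Cre against 52.3 and 52.4 after AAV-GFP. AAV-Cre library 1 was thus the low one for these genes, and AAV-Cre library 2 lay above both AAV-GFP libraries. The mean AAV-Cre percentile minus the mean AAV-GFP percentile had a median of −1.50 points, against −0.20 in 12440 others, whose SD was 15.9. Set against others of equal AAV-GFP strength the median was −2.38, with 37 of 66 lower. In 15 regions both AAV-Cre percentiles lay below both AAV-GFP percentiles (22.7%, against 20.2% of the others), in 12 both lay above (18.2%, against 18.6%), and in 39 they overlapped. The median was 4.14 without AAV-GFP library 2 and 2.03 without AAV-Cre library 1, so its sign rests on single libraries.

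The lower ranks included regions at genes of several roles. The lowest difference, −42.5 points, was 8999 bp outside Doc2a at chromosome 7, 126861704 to 126862746, at ends of Hirip3 and Ino80e, with percentiles of 15.7 and 4.76 in AAV-Cre against 51.1 and 54.5 in AAV-GFP libraries. The Syp region inside the gene came next, at 10.5 and 34.8 after AAV-Cre against 64.1 and 64.8 after AAV-GFP (−41.8). A region 2130 bp outside Unc13b at an end of Atp8b5 had 0.533 and 52.2 after AAV-Cre against 74.1 and 60.4 after AAV-GFP (−40.8). The AAV-Cre libraries themselves were far apart there. The Unc13b promoter region printed above had 30.6 and 51.9 after AAV-Cre against 68.3 and 83.5 after AAV-GFP (−34.7), and a region inside Sh3gl2, at chromosome 4, 85371087 to 85371503, had 8.89 and 22.5 after AAV-Cre against 51.0 and 29.6 after AAV-GFP (−24.5). In these 5 regions the groups did not overlap, which follows largely from their choice by the largest differences.

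The higher ranks were led by a region inside Rab3c, at chromosome 13, 110127722 to 110128076, with 74.3 and 76.2 in AAV-Cre against 5.23 and 50.9 in AAV-GFP libraries (47.2 points). Next came a region inside Dnm1 at chromosome 2, 32342515 to 32343257, with 51.2 and 77.9 after AAV-Cre against 40.3 and 31.2 after AAV-GFP (28.8 points). A region of Syt11 at 88771362 to 88771939 had 72.7 and 48.3 after AAV-Cre against 25.5 and 42.9 after AAV-GFP (26.3 points), and one inside Sv2c, at 96023750 to 96024342, had 76.4 and 80.5 after AAV-Cre against 53.6 and 51.7 after AAV-GFP (25.8 points). The gene-end region of Cplx2 had 43.5 and 27.6 after AAV-Cre against 9.92 and 16.3 after AAV-GFP (22.5 points). Groups did not overlap in these either, which were chosen in the same way. Sv2c thus held a region that ranked higher after AAV-Cre beside a promoter region that only the AAV-GFP libraries had.

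**Figure D5:**
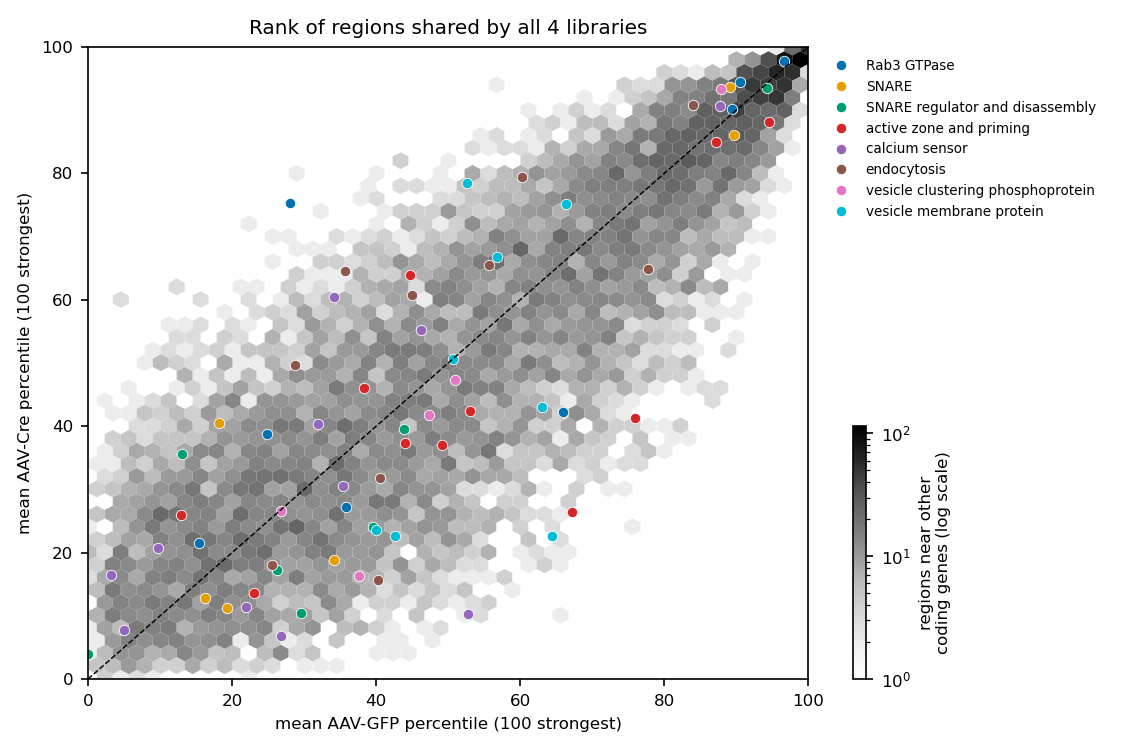
Mean percentile of each region shared by all 4 libraries, in the AAV-Cre libraries (vertical axis) and the AAV-GFP libraries (horizontal axis), both from 0 to 100 with 100 the strongest. Coloured points are the 66 regions near the 38 genes by role, grey hexagons the 12440 near other coding genes on a log colour scale, and the dashed line marks equal ranks. Points lie on both sides of the line, with Rab3a and Napb at the upper right.

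By role, active zone genes had 4 regions that ranked lower in both AAV-Cre libraries and 0 that ranked higher, of 11 shared, where 20.2% of the shared regions near other coding genes ranked lower and 18.6% higher. Calcium sensors had 3 and 3 of 11, endocytosis genes 2 and 3 of 10, Rab3 genes 1 and 2 of 8, vesicle membrane proteins 1 and 1 of 8, SNARE regulators 2 and 2 of 7, SNARE genes 1 and 0 of 6 and synapsins 1 and 1 of 5. At the ends of coding genes the 36 shared regions had a median difference of −0.37 points, against −1.15 in the others. Of the 25 shared regions at a listed gene's own end, 2 also lay at the end of another gene, as did 11 of the 18 shared regions outside a listed gene, so the data do not tell which of the genes these values belong to.

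A list of 68 further genes of vesicle release and recycling, among them SNAP, Sec1/Munc18 and clathrin adaptor genes, was fixed beside the 38. Gene ends were open in all 4 libraries for 48 (70.6%, against 41.3% of other coding genes), without a peak in all for 8 (11.8%, against 41.9%) and control-only for 1 (1.47%, against 3.08%). That gene was Rims3, a short Rim family member, with AAV-GFP folds of 4.91 and 3.99. Of 160 regions held by both AAV-GFP libraries, 27 were control-only (16.9%, interval 11.9 to 23.4, against 22.2% at equal strength), and of 108 held by both AAV-Cre libraries 5 were Cre-only (4.63%, against 3.67% at equal strength). Among 97 shared regions, 16 ranked lower and 16 higher in both AAV-Cre libraries, beside 20.2% and 18.6% near other coding genes, with a median difference of 1.00 point.

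The same measures were taken near marker genes of cell types, in small numbers. Near the 8 neuronal markers 12 of 30 regions held by both AAV-GFP libraries were control-only (40%, interval 24.6 to 57.7, against 36.3% at equal strength), and near the 7 PVH markers 4 of 8 (50%, against 46.3%). Near astrocyte markers it was 1 of 9 (11.1%, against 31.1%), near oligodendrocyte markers 3 of 11 (27.3%, against 36.8%) and near the 3 precursor markers 3 of 3 (against 43.8%). A control-only gene end was found in 2 of the 7 PVH markers, Sim1 and Trh, in 1 of the 3 precursor markers, Pdgfra, and in 0 of the 8 neuronal, 6 astrocyte, 8 oligodendrocyte, 6 microglial and 5 endothelial markers, against 3.08% of other coding genes. The gene ends of Sim1, Trh and Pdgfra, in this order, had AAV-GFP folds of 4.73 and 4.03, 6.38 and 4.63, and 5.13 and 4.05. Their part in the values of the 38 genes was not tested.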

How the data were processed

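Open chromatin was profiled in 2 AAV-Cre and 2 AAV-GFP libraries of PVH tissue, grouped by the treatment in the labels. The submitters' processing notes name MACS2, Bowtie2, Trim Galore and FastQC, and the build mm10. Tool versions, read filters, transposase offsets and the threshold for peaks were not given in the sources used here. Deposited by the authors were 6 narrowPeak lists, of which 4 belong to single libraries and 2 to groups. The deposited score of a peak was not used. The deposited fold is the authors' ratio of signal to background at the summit, and each peak carries −log10 p and −log10 q as the authors deposited them. The lists hold no read counts, so the depth of each library is unknown and the number of peaks may depend on it.

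Peaks of the 4 library lists were merged at 1 bp of overlap. Genes came from the RefSeq table of GRCm38.p6, the same assembly as mm10, with which 38 of 38 listed genes and 68 of 69 further release genes matched. That table gives no strand or exons. Directions between libraries were read from the presence of peaks and from ranks among shared regions, and folds were printed as a description. Shares of control-only regions were set beside those near other coding genes, directly standardised to the same decile (of 10) of the weaker AAV-GFP percentile and to gene-end or other position, and carry 95% Wilson intervals. The computation was tested on simulated regions. Python 3.11.15, numpy 2.4.6, pandas 2.3.3, scipy 1.17.1 and matplotlib 3.10.9 were used.

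The genes, lists and named-gene rule were chosen with earlier results of these data known. Named with values were genes with a control-only or Cre-only region or a gene end that differed between libraries, the 5 strongest and 5 weakest shared gene ends, the 5 genes with most regions, and the 5 largest rank differences in each direction. Alternatives were the group lists, lists of equal length, a −log10 q of at least 5, other overlaps, windows and flanks, a replicate block and leaving out each library.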

Additional observations from a re-analysis of the deposited data

How the results depend on the processing

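Over 15 alternatives, the control-only share of the 38 genes differed from the share at equal AAV-GFP strength by −1.71 to 5.41 percentage points, and by −0.96 to 2.57 without each library in turn. The difference of 5.41 points was that with lists of equal length. The counts themselves moved with the lists. Leaving out a library drops a condition of each count, so without a library a count could hardly fall. The 40 control-only regions became 15 with lists of equal length, 76 with the 2 group lists and 61 with flanks of 50 kb, and 51 to 154 without each library, the highest without AAV-GFP library 2. Of the 40, 14 were still control-only at equal length and 26 had lost their own peak in at least 1 AAV-GFP library. The 3 Cre-only regions became 9, 10 and 7 under the same 3 settings and 4 to 19 without each library. The 28.2% share became 18.5% at equal length, against 13.1% near other genes at equal AAV-GFP strength. With the group lists it was 53.9%, against 51.1%. Where a peak had to cover 50% of its region, a setting chosen after seeing the data, it was 42.1%, against 39.5%. Without each library it was 36.2% to 57.5%, against 36.9% to 57.05%. The Cre-only share of 4% became 12.7% at equal length, 13.3% with the group lists and 5.41% to 15.6% without each library. The Cre-only share near other coding genes is not given under these settings. The rise is therefore not read as particular to the 38 genes. The 24 gene ends open in all 4 libraries became 14 once peaks under a −log10 q of 5 were dropped, and 24 to 27 without each library. The 3 control-only gene ends became 1 (Sv2c) at equal length and at that q, 7 with the group lists (Erc2, Rims2, Sv2b, Sv2c, Syp, Syt7 and Vamp2), and 3 to 6 without each library. With the group lists 2132 of 21849 other coding genes also had a control-only gene end. The median rank difference of −1.50 points was −12.5 when ranked within whole lists (others −9.59), 5.78 at that q, 0.48 by fold enrichment and −2.89 to 4.14 without each library, so its sign was not stable. Equal length removes peaks, mostly from AAV-GFP library 1, of which 40.5% stayed at equal length. The cause of the other shifts was not tested.

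A replicate block, in which same-numbered libraries were treated as pairs, gave 40, 3, 28.2%, 24, 3 and −1.50 points, the same values by construction, since absence in both pairs is absence in both libraries. The labels do not tie same-numbered libraries to one another, and the overlap of the lists, which depends on their length, cannot show whether they are paired. The planned overlap of 50% of the peak or of the region also changed nothing by construction, since each peak lies within its merged region. Unknown depth, 2 libraries a group and peak calls in place of counts limit all values, and an absent peak is not a measured loss of accessibility.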
